A study of Mus musculus with 9 samples.

Results

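Cells carrying both a Creb5 and a Sox9 reporter were compared with cells carrying the Sox9 reporter alone, in the developing knee of E14.5 mouse embryos. All embryos had the genotype Creb5 3XHA-P2A-tdTomato/+; Sox9 iresEGFP/+, so each reporter sat at 1 allele of its host gene and every population came from embryos with the same alleles. Knees were dissected and digested with collagenase, and the single cells were sorted into GFP-only cells (EGFP from the Sox9 locus), RFP-only cells (tdTomato from the Creb5 locus) and double-positive cells, with 250K to 500K cells per sample. The comparison used 6 of the 9 libraries, 1 GFP-only and 1 double-positive library from each of the litters numbered 1, 2 and 5, which were also collected on separate days. Libraries are named below by population and litter (GFP1, GFP2, GFP5, DP1, DP2 and DP5, with RFP1, RFP2 and RFP5 for the third population). Of 54532 genes in the deposited table, the 17619 with a mean of at least 10 normalized counts over the 6 libraries were compared. At that edge Gm26695 (9.998) stayed out and Gm49207 (10.01) was kept.

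A synovial joint starts as an interzone, a layer of flattened cells across the cartilage template, and its descendants form articular cartilage, ligament and the joint lining. Cells on either side follow another course: they make cartilage matrix under Sox9, then stop dividing, express Ihh, enlarge and make collagen X before bone replaces them. Creb5 encodes a bZIP factor of the CREB and ATF family, and the study's title concerns its own control and the regulatory program of the interzone.

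In double-positive cells 16 of 30 joint interzone genes, 14 of 34 loose connective tissue genes, 10 of 28 tendon genes and 12 of 22 neurexin ligand and related genes were called higher than in GFP-only cells. So were 16 of 22 macrophage and leukocyte markers and 6 of 11 pericyte and smooth muscle markers, which belong to other cell types. The summed pericyte and smooth muscle markers overlapped between populations, and 2 of their 6 calls passed in every fit that left out 1 library. Called lower were 16 of 29 cartilage matrix genes and 15 of 21 genes of prehypertrophic and mineralizing cartilage. The lists were chosen with earlier results of these data known, so their counts are a description. Some share members, as Osr1 and Osr2 do in the interzone and loose connective tissue lists. In total 1629 genes were called, which is 9.25% of those tested (limma with the litter as a block, adjusted p under 0.05). Of these, 1048 were higher (5.95% of tested genes) and 581 lower (3.3%) in the double-positive population, with a change of 2-fold or more for 1511. All 1629 had 1 sign in all 3 litters, but a call rests on the mean of these same 3 ratios, so this is no separate check. The 3 values of one population lay entirely above those of the other for 1531 of the called genes and for 28.3% of all tested genes. The split leaned more to higher genes when libraries were scaled by their total count, with 1539 higher and 364 lower, since that scaling moved the median log2 fold change of all genes from 0.03 to 0.33. The plot of all tested genes shows the called genes over the whole range of abundance.

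**Figure D1:**
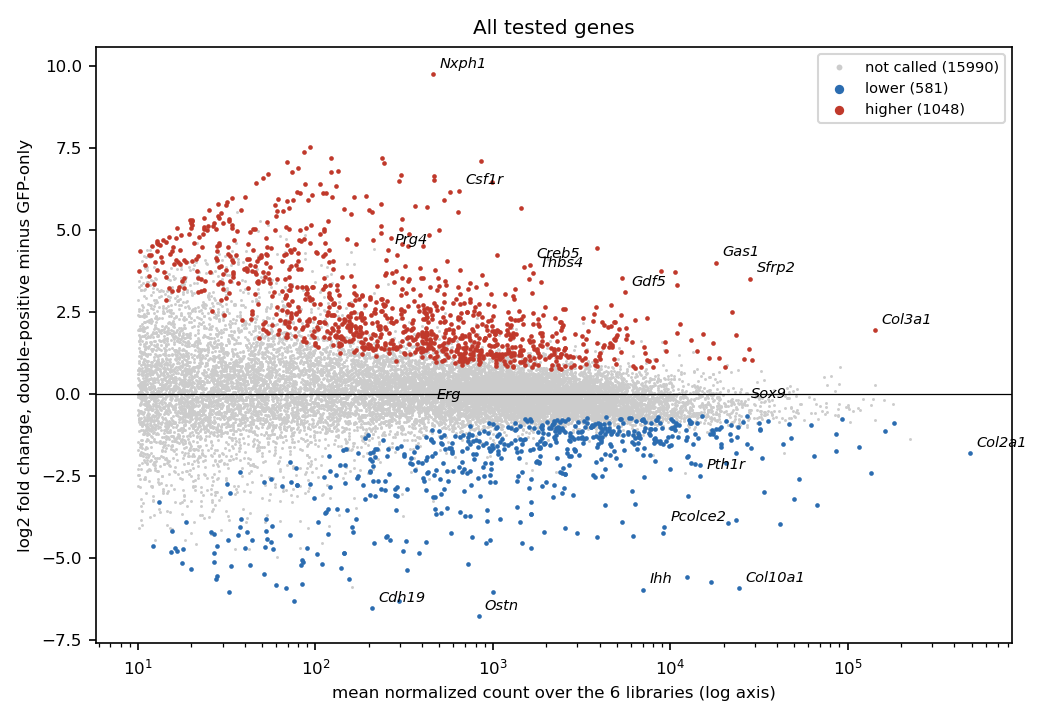
Each point is 1 of 17619 genes, with its mean normalized count over the 6 libraries on a log axis and its log2 fold change (double-positive minus GFP-only) on the other. Red marks the 1048 genes called higher and blue the 581 called lower in double-positive cells, and named genes such as Nxph1, Gas1, Ihh and Ostn stand far from 0.

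The libraries held 32402521 to 47079305 recovered reads. GFP5 stood apart from its group: its log2 values deviated from the mean of the other 2 GFP-only libraries with an SD of 1.34 over genes, against 1.03 and 1.09 for GFP1 and GFP2 and 0.945 to 0.953 for the double-positive libraries. Within litter 5, 4690 genes were at least 2-fold higher and 3918 at least 2-fold lower, against 2462 and 1914 in litter 1 and 2852 and 1920 in litter 2. The litter 5 ratios also followed transcript length, with a median log2 ratio of -0.95 in genes of at most 1956 bases and 0.56 in genes of at least 7004 bases, while litters 1 and 2 had medians of 0 and 0.06 in the short and 0.00 and 0.05 in the long genes. The split of calls differed with length too, with 129 higher and 114 lower in the short and 255 higher and 86 lower in the long genes. With the length trend removed within each litter, 1732 genes were called, 1144 higher and 588 lower. Without GFP5, 2826 genes (16% of tested) were called, 1485 higher and 1341 lower, and 1482 of the 1629 calls were among them. List counts below are therefore given with and without GFP5. Leaving out DP2 had the opposite effect and gave the lowest count of the fits that leave out 1 library, 338 genes. In total 301 calls (198 higher, 103 lower) passed in all 9 such fits. Every count of called genes below is read against the 9.25% of all tested genes, and every count without GFP5 against the 16%.

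The reporter genes define the sort, so their levels check the labels and are no finding. Creb5 (ENSMUSG00000053007, chromosome 6, 53287270 to 53700376, plus strand) had 196, 138 and 274 normalized counts in GFP1, GFP2 and GFP5 and 3408, 2969 and 2754 in DP1, DP2 and DP5, the order of litters used throughout. Every double-positive value lay far above every GFP-only value, a 15.5-fold difference (log2 fold change 3.95 ± 0.26, n = 3 litters). Each value after ±, here and below, is the SE of the limma fit over all 9 libraries. It rests on a spread per gene that the fit draws toward the trend over all genes, not on the 3 litter ratios alone. The 95% intervals of log2 fold changes use the same SE. Sox9 (ENSMUSG00000000567, chromosome 11, 112782224 to 112787760, plus strand) had 37991, 22771 and 25967 and 29767, 16565 and 24088. Its values overlapped and were lower in the double-positive library of each litter, with a log2 fold change of -0.31 ± 0.19 (95% interval -0.74 to 0.13, adjusted p = 0.348). The sign of that Sox9 difference turned under quantile scaling (0.12). With each library left out in turn, the calls of the genes named with values here passed. Calls made only with a library left out were those of Sox9 (log2 fold change -0.45 without GFP5, adjusted p = 0.0313).

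The promoter of Creb5 is shown because the study concerns control of Creb5 by itself, and because the sorted cells differ in Creb5. It holds 1 cAMP response element, the palindrome TGACGTCA that CREB and ATF dimers are known to bind, which starts 45 bases before the RefSeq start. The sequences below come from RefSeq on GRCm38.p6, 5′ to 3′ along the gene, with the motif in capitals. The Creb5 stretch is chr6:53287053-53287352 on the plus strand (250 bases before the start and 50 after it).
Creb5: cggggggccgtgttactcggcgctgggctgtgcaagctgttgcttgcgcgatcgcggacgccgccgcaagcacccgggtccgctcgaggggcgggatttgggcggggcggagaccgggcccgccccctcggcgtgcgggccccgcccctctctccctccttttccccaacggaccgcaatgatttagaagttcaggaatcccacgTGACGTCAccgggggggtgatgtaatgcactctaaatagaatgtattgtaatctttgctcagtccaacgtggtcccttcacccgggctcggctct

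Other called genes with the same element were few. Pdlim3 (chr8:45885413-45885472, plus strand), Mcam (chr9:44134603-44134657, plus strand) and Kctd8 (chr5:69341710-69341763, minus strand) are shown with their surroundings, as is the AP-1 site TGACTCA, read on either strand, in Tnfaip6 (chr2:52037945-52038003, plus strand) and Hoxd11 (chr2:74679512-74679557, plus strand). They were chosen after their values were seen. The Mcam stretch lies before a RefSeq start but within the gene as annotated here, which begins at 44134469.
Pdlim3: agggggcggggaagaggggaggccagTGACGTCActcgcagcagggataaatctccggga
Mcam: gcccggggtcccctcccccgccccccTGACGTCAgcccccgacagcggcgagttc
Kctd8: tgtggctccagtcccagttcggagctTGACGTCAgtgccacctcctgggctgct
Tnfaip6: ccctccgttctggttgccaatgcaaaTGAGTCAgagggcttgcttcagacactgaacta
Hoxd11: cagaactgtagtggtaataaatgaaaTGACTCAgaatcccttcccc

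Of 11973 tested genes with a matched promoter, 2.58% held TGACGTCA within 250 bases before the start, on either strand, against 15 of 765 genes called higher (1.96%) and 5 of 436 called lower (1.15%). The shorter core TGACG (on either strand), which every full element also contains, was in 26.1% of all these promoters, 18.3% of those higher and 19.7% of those lower. The AP-1 site was in 2.89% of all, 3.92% of those higher and 3.67% of those lower. Among the shown genes, Pdlim3, which encodes a PDZ and LIM domain protein of actin structures, had 117, 174 and 155 normalized counts in GFP-only and 1766, 1410.3 and 1175 in double-positive libraries, 9.69-fold higher. Kctd8 had 23.1, 12.2 and 29.8 and 203, 196 and 194 (9.26-fold higher), with every double-positive value above every GFP-only value in both genes. When single libraries were left out, the calls of the genes named with values here passed.

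The largest rises began with genes that had no read in GFP-only libraries. Nxph1 (ENSMUSG00000046178, chromosome 6, 8948431 to 9249032, plus strand), a secreted neurexophilin that binds neurexins, had 0, 0 and 0 normalized counts in GFP-only libraries and 1395, 678 and 689 in double-positive libraries, at least 816-fold higher (taking 3 reads over all GFP-only libraries as the floor). Ptpro, a receptor tyrosine phosphatase, had 142, 144 and 229.5 in double-positive libraries (at least 161-fold higher) and Krt80, a keratin, 118, 188 and 108 (at least 128-fold higher). Slc17a6, a vesicular glutamate transporter, had 79.7, 159 and 87.5 (at least 102-fold). All 3 GFP-only libraries were at 0 for each of these genes. Lgi1, a secreted protein of synapses, had 18.2, 8.57 and 0 and 569.7, 798 and 428, 102-fold higher. Ano5, an anoctamin membrane protein, had 2 reads in all GFP-only libraries against 279, 341 and 111 normalized counts, a ratio of 331 with a 95% counting interval of 91.3 to 2735. That interval covers the counting of reads pooled over libraries only and leaves out the spread between litters. C3ar1 (0, 14.7 and 0 and 217, 243 and 950.3, 148-fold higher), C1qb (0, 17.1 and 44.8 and 549, 1246 and 3291, 139.5-fold higher), and Ccr1 are known from myeloid cells, and Ifi207 is induced by interferon. Both Ifi207 (85.5, 57.7 and 339 in DP1, DP2 and DP5, at least 155-fold higher) and Ccr1 (36.5, 119 and 288, at least 145-fold higher) were without a read in GFP1, GFP2 and GFP5, and DP5 was the highest library for both. The macrophage and leukocyte markers moved the same way (described last), and their part in these rises was not tested. In bulk RNA, more cells of a type and more RNA per cell cannot be told apart. Among fits that left out 1 library, adjusted p was no longer under 0.05 for Ifi207 (without DP2 or DP5, up to 0.0805). For genes without a GFP-only read the fold is a bound, so leaving out GFP1 lowers it by the same factor whatever the gene. Without GFP1 the bounds were 459 for Nxph1, 90.5 for Ptpro, 72.01 for Krt80, 57.2 for Slc17a6, 87.2 for Ifi207 and 81.5 for Ccr1. Leaving out DP5 also lowered the bounds of Ifi207 (64.6) and Ccr1 (75.7), whose highest library it was. Both Ano5 reads were in GFP2, so its value without GFP2 (155) is such a bound, and its ratio without GFP1 was 186. The fold moved by more than 1.5 times for Lgi1 (43.5 without GFP5 to 169 without GFP1, with DP1 between). So did those of C3ar1 (67.7 without DP5 to 480.1 without GFP2, with GFP5, GFP1 and DP2 between) and C1qb (49.5 without GFP1 to 284 without GFP5).

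The rises with the smallest adjusted p included a hedgehog co-receptor and cytoskeletal genes. Gas1 (ENSMUSG00000052957, chromosome 13, 60174405 to 60177365, minus strand), a membrane co-receptor for hedgehog ligands, had 2477, 2447 and 1446 normalized counts in GFP-only libraries and 40424, 37739.7 and 24161 in double-positive libraries. Its log2 ratios of 4.03, 3.95 and 4.06 within litters 1, 2 and 5 gave a 16.1-fold difference (adjusted p = 0.000222). Gas2, which encodes a protein of the actin and microtubule cytoskeleton, rose from 1999.6, 1813 and 843 to 23613, 21598 and 13662 (13.2-fold). Tm4sf1, a tetraspanin-like membrane protein, rose from 179, 138 and 266 to 2265, 3455 and 2696 (14.7-fold). In these genes the lowest double-positive value was several times the highest GFP-only value. Nefl, the light neurofilament chain, rose from 102, 103 and 89.5 to 1169, 3191 and 1708 (18.8-fold), and Rgs5, a regulator of G protein signaling known from pericytes, from 8.27, 20.8 and 29.8 to 429, 677 and 437 (27.4-fold). Both belong to marker lists of other cell types. In the 9 fits that each left out 1 library, the calls of the genes named with values here passed.

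Among the genes with the highest counts, those that rose included growth factor and matrix genes. Ptn, which encodes the heparin-binding growth factor pleiotrophin, rose from 9372, 10254 and 10542 to 28283, 50906 and 30812 normalized counts (3.52-fold, adjusted p = 0.0033). Col3a1, the collagen III chain of fibrous tissue, had 62611, 137136 and 17276 and 146553, 298153 and 194052, with its lowest GFP-only value in litter 5 (3.85-fold, adjusted p = 0.0432). Postn, the matricellular protein periostin, had 3167, 16793 and 3644 and 16884, 53097 and 40847 (5.74-fold). Fstl1, a follistatin-like secreted protein, Igfbp4, a binding protein of insulin-like growth factors, and the noncoding RNA Meg3 rose 2.62-, 2.08- and 2.09-fold. After removal of 1 library at a time, adjusted p was no longer under 0.05 for Col3a1 (without DP1, DP2, DP5, GFP1 or RFP1, up to 0.178), Postn (without DP2, up to 0.0658), Fstl1 (without DP1, DP2 or DP5, up to 0.0821), Igfbp4 (without DP1, DP2, DP5, GFP1 or RFP1, up to 0.144) and Meg3 (without DP2 or DP5, up to 0.0807). Folds that moved by more than 1.5 times were those of Col3a1 (2.21 without GFP5) and Postn (8.78 without GFP2).

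The largest falls included genes of maturing cartilage. Ostn (ENSMUSG00000052276, chromosome 16, 27307489 to 27351212, plus strand), which encodes the secreted peptide osteocrin, had 1853, 1401 and 1681 normalized counts in GFP-only libraries and 3.84, 25.7 and 24.7 in double-positive libraries, 109.6-fold lower. Ihh (ENSMUSG00000006538, chromosome 1, 74945315 to 74951672, minus strand), the hedgehog ligand of prehypertrophic chondrocytes, had 16693, 12533 and 12237 and 121, 153 and 558 (62.5-fold lower). Its highest double-positive value, in litter 5, was still under the lowest GFP-only value. Col10a1, the collagen of hypertrophic cartilage, had 10049, 72495 and 58216 and 56.7, 673 and 5035 (60.1-fold lower), and Panx3, a pannexin channel of the same cells, 28849, 38721 and 32215 and 324, 405 and 1781 (53.5-fold lower). For Ihh, Col10a1 and Panx3 the double-positive value of litter 5 was the highest of the 3. Smim5, a small membrane protein, fell from 1469, 1516 and 2908 to 20.2, 16.4 and 62.1 (65.4-fold). Cdh19, a cadherin known from Schwann cells, had 558, 507 and 174 and 2.88, 15.6 and 0 (91.6-fold lower), and Apof, an apolipoprotein, 53.7, 153 and 243 and 0, 0 and 2.99 (80.2-fold lower). Across the fits without 1 library, the calls of the genes named with values here passed. A move of the fold by more than 1.5 times was seen for Ostn (63.3 without GFP1 to 168 without GFP2), Ihh (107 without DP5), Col10a1 (39.99 without DP1 to 132 without DP5, with GFP5 between), Panx3 (33.9 without DP2 to 105 without DP5) and Cdh19 (59.9 without DP5 to 168 without DP2).

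The falls with the smallest adjusted p were led by Pcolce2 (ENSMUSG00000015354, chromosome 9, 95637601 to 95698096, plus strand), which encodes an enhancer of procollagen processing. It had 9490.4, 13861 and 29159.7 normalized counts in GFP-only and 614, 760.1 and 1818 in double-positive libraries, with log2 ratios of -3.95, -4.19 and -4.00 (16.5-fold lower, adjusted p = 0.000531). Its levels were highest in litter 5 in both populations. Tspan32, a tetraspanin, fell from 1969, 2393 and 4070.3 to 74.9, 105 and 188 (23.2-fold), and Pltp, a phospholipid transfer protein, from 5642, 6937 and 9515 to 240.2, 324 and 547 (20.6-fold). Sgms2, a sphingomyelin synthase, fell 20.1-fold, Prkg2, a cGMP-dependent kinase needed for growth plate maturation, 17.1-fold, and Vdr, the vitamin D receptor, 14.8-fold. None of these genes overlapped between populations. Leaving out single libraries, the calls of the genes named with values here passed.

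Of 30 tested joint interzone and articular progenitor genes, 16 were called higher and 2 lower (10 of them in every fit without 1 library), with a median log2 fold change of 1.64 (all tested genes, 0.03), and without GFP5 18 higher and 4 lower, median 1.16. Gdf5 (ENSMUSG00000038259, chromosome 2, 155941023 to 155945367, minus strand), a BMP-related ligand and interzone marker, had 793, 995 and 1385 normalized counts in GFP-only and 16771, 8104 and 5235 in double-positive libraries (8.66-fold higher). Its double-positive values were highest in litter 1 and lowest in litter 5, and its log2 ratios were 4.40, 3.02 and 1.92. Osr2 and Osr1, odd-skipped zinc finger factors of joint and connective tissue, rose from 177, 431 and 467 to 9635, 6978 and 5582 (21.9-fold) and from 158, 322 and 262 to 2109.9, 4805 and 1913 (11.3-fold). Barx1, a homeobox factor, rose from 309, 246 and 358 to 4797, 2327 and 3108 (10.8-fold), and Sfrp2, a secreted Wnt modulator, from 4929, 4117 and 3929 to 66456, 59322 and 30709 (11.5-fold). Those that fell were Nog, the BMP antagonist noggin, with 6371, 3514 and 3327 and 1875, 623 and 1733 (3.32-fold lower), and the ligand gene Wnt4 (3.702-fold lower). The factor Erg had 534, 439.5 and 486 and 489, 250.3 and 464 and was not called (log2 fold change -0.33 ± 0.42, 95% interval -1.29 to 0.62, and 0.13 without DP2). Wnt9a had 202, 747 and 29.8 and 321, 511 and 349.9 and was not called (1.21 ± 0.76, 95% interval -0.52 to 2.94), with its lowest value in GFP5. With each library left out in turn, adjusted p was no longer under 0.05 for Gdf5 (without DP1 or DP2, up to 0.0836), Nog (without DP1, DP2 or GFP1, up to 0.071) and Wnt4 (without DP1, DP2, DP5 or GFP1, up to 0.0958). In the same fits the fold moved by more than 1.5 times for Gdf5 (14.1 without DP5).

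Of 16 lubricin and hyaluronan genes, 6 were called higher and 3 lower (4 of them in every fit without 1 library), with a median log2 fold change of 0.80, and without GFP5 6 higher and 3 lower, median 0.84. Prg4 (ENSMUSG00000006014, chromosome 1, 150449412 to 150466165, minus strand), which encodes the joint lubricant lubricin, had 18.2, 37.95 and 14.9 and 453, 635 and 379 normalized counts, 20.97-fold higher with log2 ratios of 4.56, 4.03 and 4.58. Tnfaip6, a hyaluronan-binding protein, rose from 832, 741 and 1221 to 2787, 3128 and 6104 (4.13-fold), and Htra1, a secreted protease, from 1273, 2298 and 3275 to 10477, 12296 and 8229 (4.799-fold). The hyaluronan receptor gene Cd44 rose 3.54-fold, with values that overlapped. The genes that fell were Hapln1 and Hapln3, link proteins that bind hyaluronan to proteoglycan, from 79746, 91790.4 and 94808 to 9259, 10158 and 34682 (5.97-fold) and 7.61-fold, and Ugdh, which makes the sugar precursor of hyaluronan and sulfated chains, from 42335, 39645 and 46933 to 13259, 9529 and 20169.7 (3.14-fold). The synthase gene Has2 had 1620.2, 1936 and 1205 and 784, 1366 and 1540.2 and was not called (-0.40 ± 0.29, 95% interval -1.06 to 0.26). When single libraries were left out, adjusted p was no longer under 0.05 for Cd44 (without DP2 or DP5, up to 0.112), Hapln1 (without DP1 or DP2, up to 0.0571) and Hapln3 (without DP1, DP2 or GFP1, up to 0.0836). Single libraries moved the fold by more than 1.5 times for Hapln1 (9.21 without DP5).

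**Figure D2:**
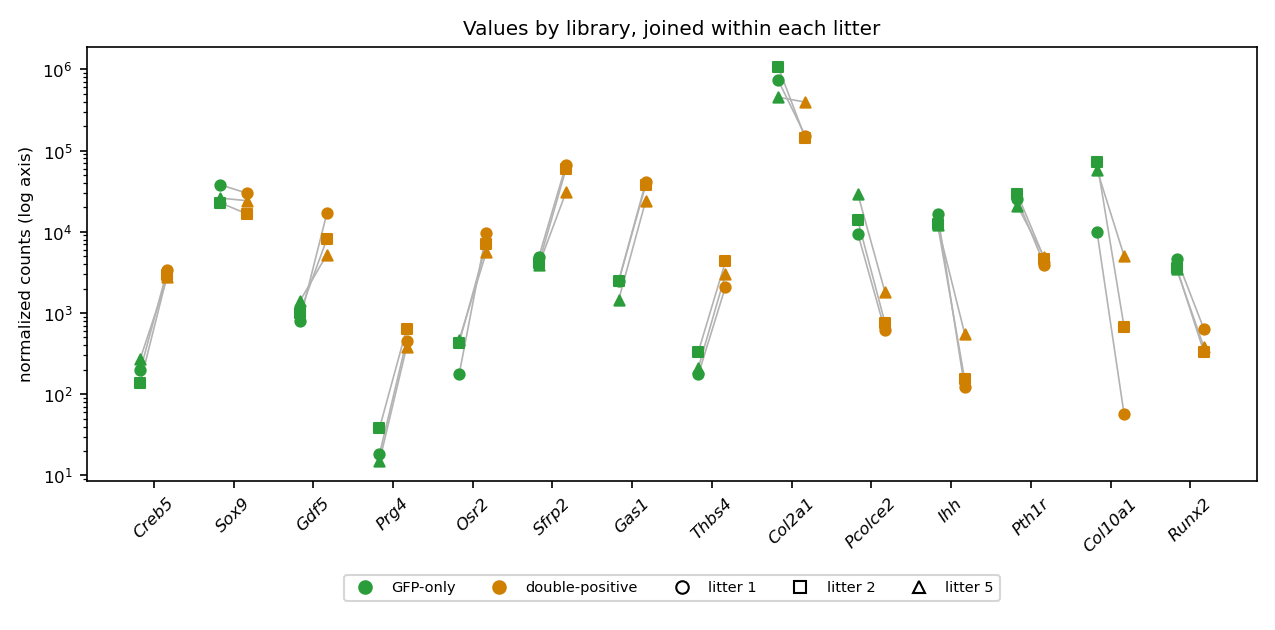
Normalized counts on a log axis for 14 genes, in GFP-only (green) and double-positive (orange) libraries, with grey lines joining the libraries of 1 litter. The lines rise in all 3 litters for Creb5, Gdf5, Prg4, Osr2, Sfrp2, Gas1 and Thbs4, fall in all 3 for the cartilage genes from Col2a1 to Runx2, and fall by less than 1.5-fold in each litter for Sox9.

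Most of the cartilage matrix genes tested were called lower. Of 29 tested, 2 were called higher and 16 lower (8 of them in every fit without 1 library), with a median log2 fold change of -1.61, and without GFP5 3 higher and 18 lower, median -1.89. Col2a1 (ENSMUSG00000022483, chromosome 15, 97975602 to 98004695, minus strand), the main collagen of cartilage, had 737693, 1074923 and 453528 normalized counts in GFP-only and 152097, 143506 and 394725 in double-positive libraries (3.47-fold lower, adjusted p = 0.0414). Its populations did not overlap, and its log2 ratios were -2.28, -2.91 and -0.20, the least in litter 5. Col11a1, a minor fibril collagen of cartilage, fell from 78677, 95771 and 129072 to 18725, 23057 and 44095 (3.71-fold), and Matn1, the matrix protein matrilin-1, from 145491, 194642 and 332069 to 26048, 26105 and 90933 (5.34-fold). C1qtnf3, a secreted protein known from growth plate cartilage that is not in this list, fell from 53764, 120472 and 185204 to 4248, 7928 and 32001 (10.4-fold). Acan, the large proteoglycan aggrecan, had 39917, 58059.5 and 54128 and 8624, 10058 and 25529 (3.84-fold lower) and was chosen after its values were seen. The collagen chains Col9a1 and Col9a2 fell 3.31- and 2.34-fold and Col27a1 2.69-fold, while Col9a3 (-1.38 ± 0.38) and Col11a2 (-1.80 ± 0.55) were not called. The list's rises were Cilp, a cartilage intermediate layer protein, with 0, 12.2 and 0 and 109, 163 and 80.8 (48.04-fold higher), and the small proteoglycan gene Fmod (2.47-fold). Among fits that left out 1 library, adjusted p was no longer under 0.05 for Col2a1 (without DP1, DP2, GFP1, GFP2, RFP1 or RFP2, up to 0.193), Matn1 (without DP1, DP2, GFP1 or GFP5, up to 0.152), Acan (without DP1, DP2, DP5, GFP1 or GFP2, up to 0.218), Col9a1 (without DP1, DP2, GFP1, GFP2 or RFP1, up to 0.17), Col9a2 (without DP1, DP2, GFP1, GFP2, RFP1, RFP2 or RFP5, up to 0.227) and Fmod (without DP1, DP5 or GFP1, up to 0.102). Not called above but called in such fits were Col9a3 (log2 fold change -1.71 without GFP5, adjusted p = 0.0197 and -1.38 without RFP1, adjusted p = 0.0442) and Col11a2 (log2 fold change -2.48 without DP5, adjusted p = 0.0332 and -2.39 without GFP5, adjusted p = 0.023). The fold moved by more than 1.5 times for Col2a1 (5.21 without DP5 to 5.29 without GFP5), Matn1 (3.404 without DP2) and Cilp (31.5 without GFP1 to 109 without GFP2).

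Among transcription factors and cofactors of chondrocyte and bone formation, with 29 tested, 3 were called higher and 10 lower (6 of them in every fit without 1 library), with a median log2 fold change of -0.54, and without GFP5 3 higher and 14 lower, median -0.69. Among those that fell, Runx2 had 4662, 3579.7 and 3437 and 638, 334 and 383 normalized counts (8.88-fold lower), Dlx5 4616, 3603 and 4819 and 648, 447 and 515 (8.12-fold lower) and Mef2c 10713, 11154 and 14313 and 1278, 2149 and 3264 (5.75-fold lower). The log2 ratios of Runx2 were -2.87, -3.42 and -3.16, and none of these 3 genes overlapped between populations. Dlx3 fell 12.7-fold. Beside Barx1, the rises were the paired box factors Pax9, from 12.4, 22.04 and 63.8 to 1342, 585 and 605 (28.8-fold), and Pax1, with 58.7, 82.03 and 0 and 634, 548 and 511 (33.02-fold), which had no read in GFP5. Xbp1, a factor of the secretory pathway, was not called (-0.66 ± 0.18, adjusted p = 0.0511). In the 9 fits that each left out 1 library, adjusted p was no longer under 0.05 for Pax1 (without DP1, DP2, DP5 or RFP2, up to 0.147). Removal of a library gave a call for Xbp1 (log2 fold change -0.63 without GFP5, adjusted p = 0.0104). Folds that moved by more than 1.5 times were those of Pax9 (16.5 without GFP1 to 49 without GFP5) and Pax1 (7.62 without GFP5 to 72.1 without GFP2, with DP5, DP2 and GFP1 between).

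Most prehypertrophic, hypertrophic and mineralizing genes were called lower. Of 21 tested, 0 were called higher and 15 lower (8 of them in every fit without 1 library), with a median log2 fold change of -3.06, and without GFP5 0 higher and 16 lower, median -3.37. Pth1r (ENSMUSG00000032492, chromosome 9, 110722085 to 110747145, minus strand), the receptor of parathyroid hormone-related protein, had 25171, 29338 and 20946 and 3916, 4649.6 and 4837 (5.599-fold lower, log2 ratios -2.68, -2.66 and -2.11). Cd200, a membrane glycoprotein, fell from 6595, 5182 and 6969.7 to 1134, 968 and 1261 (5.56-fold). Smpd3, a sphingomyelinase needed for mineralization, had 33487, 27772 and 11288 and 148, 362 and 1779 (47.8-fold lower). Their values did not overlap between populations. Vegfa, the vascular growth factor, had 4773, 3559 and 1727 and 5266, 4608 and 6897 and was not called (0.84 ± 0.35, 95% interval 0.04 to 1.64). After removal of 1 library at a time, the calls of the genes named with values here passed. A move of the fold by more than 1.5 times was seen for Smpd3 (25.8 without GFP1 to 121 without DP5, with DP1 and GFP5 between).

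Genes that build and sulfate glycosaminoglycans, the side chains of cartilage proteoglycans, included more falls than rises. Of 41 tested, 2 were called higher and 8 lower (3 of them in every fit without 1 library), with a median log2 fold change of -0.13, and without GFP5 5 higher and 17 lower, median -0.32. The chondroitin sulfotransferase genes Chst11, from 4990.3, 6823 and 7351 to 1447, 1052 and 2754, and Chst12 fell 3.91- and 2.595-fold, and Slc35b2, the Golgi transporter of the sulfate donor, 2.62-fold. The rises were those of the extracellular sulfatases that trim heparan sulfate: Sulf1 had 2039, 1911 and 429 and 19565, 16076 and 13476 (13.6-fold) and Sulf2 12523, 12645 and 10820.2 and 25834, 27234 and 24150.4 (2.15-fold). Papss2, which makes the sulfate donor, was not called (-0.98 ± 0.31, adjusted p = 0.0861). Across the fits without 1 library, adjusted p was no longer under 0.05 for Chst12 (without DP2, up to 0.0621), Slc35b2 (without DP2, up to 0.0604) and Sulf2 (without DP1 or DP2, up to 0.0838). Calls made only with a library left out were those of Papss2 (log2 fold change -1.25 without GFP5, adjusted p = 0.028). In the same fits the fold moved by more than 1.5 times for Sulf1 (8.25 without GFP5).

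Collagen modification, export and crosslinking genes gave no rise. Of 39 tested, 0 were called higher and 11 lower (2 of them in every fit without 1 library), with a median log2 fold change of -0.63, and without GFP5 2 higher and 28 lower, median -0.77. Beside Pcolce2, the crosslinking enzyme gene Loxl4 had 1940.1, 5110.1 and 2279 and 48.04, 73.3 and 357 (25.9-fold lower), and Tgm2, a transglutaminase, 4349, 4727 and 2435 and 388, 424 and 930.1 (6.88-fold lower). Adamts3, a procollagen peptidase, fell 5.59-fold. Serpinh1, the collagen chaperone HSP47, had 226485, 255825 and 222409.7 and 112196, 116996 and 157834 (1.84-fold lower), and Hspa5, a general chaperone of the secretory pathway that is outside this list, fell 1.69-fold. Leaving out single libraries, adjusted p was no longer under 0.05 for Tgm2 (without DP2, up to 0.0578), Adamts3 (without DP1 or DP2, up to 0.0634), Serpinh1 (without DP1, DP2, DP5, GFP1, GFP2, RFP1, RFP2 or RFP5, up to 0.185) and Hspa5 (without DP1, DP2, DP5, GFP1, GFP2, RFP1, RFP2 or RFP5, up to 0.186). Single libraries moved the fold by more than 1.5 times for Loxl4 (40.2 without GFP5 to 47.7 without DP5) and Tgm2 (11.1 without GFP5).

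Collagens of fibrous tissue and basement membrane leaned the other way. Of 27 chain genes tested, 8 were called higher and 1 lower (1 of them in every fit without 1 library), with a median log2 fold change of 1.13, and without GFP5 10 higher and 1 lower, median 0.59. Col5a1, which starts collagen fibrils, rose from 7519.8, 12732 and 5919.6 to 18099, 39882 and 20199 (2.95-fold), and Col14a1, a fibril-associated chain, 2.57-fold with overlapping values. Col4a1, a basement membrane chain, rose 3.22-fold and Col16a1 fell 1.93-fold. The collagen I chains, Col1a1 with 61004, 225055 and 6541 and 50301, 114777 and 84864 and Col1a2 with 50751, 147658 and 15653 and 41512, 115714 and 73029.9, were not called. Litters 1 and 2 were lower and litter 5 higher in double-positive cells for both, and without GFP5 their log2 fold changes were -0.60 and -0.32. With each library left out in turn, adjusted p was no longer under 0.05 for Col14a1 (without DP1, DP2, DP5 or GFP1, up to 0.146), Col4a1 (without DP1, DP2, DP5 or GFP2, up to 0.134) and Col16a1 (without DP1, DP2, GFP1, GFP2, RFP1, RFP2 or RFP5, up to 0.182).

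Of 22 elastic fiber and microfibril genes, 8 were called higher and 2 lower (4 of them in every fit without 1 library), with a median log2 fold change of 1.15, and without GFP5 10 higher and 2 lower, median 0.72. Emilin2, a glycoprotein of elastic fibers, rose from 162, 264 and 145 to 518, 2359 and 1336 (6.37-fold), and Ltbp4, which tethers latent TGF-beta to microfibrils, from 742, 1221 and 414 to 2824, 4466 and 3707 (4.99-fold). Fbln5, needed for elastic fiber assembly, rose 3.501-fold, while the related Fbln7 fell from 4931, 7093 and 13303 to 1589, 2129 and 3872 (3.29-fold). Small leucine-rich proteoglycans, which bind collagen fibrils, went both ways: of 14 tested, 2 were called higher and 4 lower (3 of them in every fit without 1 library), with a median log2 fold change of -0.06, and without GFP5 3 higher and 4 lower, median -0.64. Kera, keratocan, rose from 106, 316 and 258 to 361, 1907 and 879 (4.11-fold). Prelp fell from 13241, 17135 and 18659.6 to 2619, 2715 and 5249 (4.84-fold), Lum, lumican, from 28733, 46422 and 44951 to 8561, 19154 and 15463 (2.87-fold) and Epyc, epiphycan of cartilage, 9.12-fold. Dcn, decorin, was not called (1.62 ± 0.44, adjusted p = 0.0511). When single libraries were left out, adjusted p was no longer under 0.05 for Kera (without DP2, up to 0.0652). Not called above but called in such fits were Dcn (log2 fold change 2.05 without GFP5, adjusted p = 0.0181, 1.62 without RFP1, adjusted p = 0.0283 and 1.62 without RFP5, adjusted p = 0.0472).

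Of 32 matrix protease and inhibitor genes, 7 were called higher and 1 lower (3 of them in every fit without 1 library), with a median log2 fold change of 0.49, and without GFP5 8 higher and 4 lower, median 0.20. Adamts15, a hyalectan-cleaving protease, rose from 226, 417 and 141 to 2648, 3425 and 1136 (9.15-fold) and Adamts7 from 192, 207 and 80.05 to 839, 1251 and 992 (6.85-fold). Adamts5, the aggrecanase, rose 5.66-fold. Timp1, an inhibitor of matrix metalloproteinases, fell from 1995, 3668 and 9185 to 870.5, 1307 and 1252 (3.61-fold), and Mmp2 and Mmp14 were not called (0.61 ± 0.27 and 0.51 ± 0.25). Among fits that left out 1 library, adjusted p was no longer under 0.05 for Adamts5 (without DP2, up to 0.0621) and Timp1 (without DP1, DP2 or DP5, up to 0.1).

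More tendon, ligament and loose connective tissue genes were called higher than lower. Of 28 tendon and ligament genes, 10 were called higher and 0 lower (4 of them in every fit without 1 library), with a median log2 fold change of 1.01, and without GFP5 12 higher and 1 lower, median 0.57. Thbs4 (ENSMUSG00000021702, chromosome 13, 92751590 to 92794818, minus strand), a matrix protein of tendon, had 175, 334 and 212 and 2100.3, 4314 and 2997 (12.9-fold higher), and Tnmd, tenomodulin, 402, 732 and 558 and 1168, 4484 and 2743 (4.44-fold). Scx, the tendon factor scleraxis, which was chosen after its values were seen, had 1006, 1106 and 919.9 and 3123, 3944 and 2012 (2.89-fold). Every double-positive value of these genes was above every GFP-only value. Of 34 loose connective tissue and perichondrium genes, 14 were called higher and 1 lower (8 of them in every fit without 1 library), with a median log2 fold change of 0.95, and without GFP5 16 higher and 2 lower, median 0.68. Foxp1, a forkhead factor, rose from 1409, 1434 and 1051 to 6626, 6229.9 and 5169 (4.65-fold, log2 ratios 2.23, 2.12 and 2.30). Dpp4, a membrane peptidase of fibroblasts, had 0, 3.67 and 1.36 and 129, 237 and 76.3 (60.1-fold). In the 9 fits that each left out 1 library, adjusted p was no longer under 0.05 for Scx (without DP2, up to 0.0568). The fold moved by more than 1.5 times for Dpp4 (36.3 without DP1 to 96.4 without DP5).

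In the hedgehog and PTHrP loop, Ihh and Pth1r fell while Pthlh and the co-receptors Gas1, Cdon and Boc rose. In growing cartilage Ihh induces Pthlh at the ends of the bone, and the Pthlh product acts through Pth1r to delay maturation. Of 20 genes tested, 5 were called higher and 2 lower (5 of them in every fit without 1 library), with a median log2 fold change of 0.47, and without GFP5 4 higher and 4 lower, median 0.06. Beside the falls of Ihh and Pth1r given above, Pthlh, the ligand of Pth1r, had 297, 361 and 484 and 1731, 1028 and 1698 (3.87-fold higher). The co-receptor genes Cdon, from 404, 275 and 265 to 2475, 2036 and 2472 (7.48-fold, log2 ratios 2.61, 2.88 and 3.22), and Boc (3.34-fold) rose with Gas1. The target and receptor Ptch1 had 5404, 4234 and 2757 and 2219, 1392 and 2298 and was not called (-1.05 ± 0.28, adjusted p = 0.051), nor was the transducer Smo (0.76 ± 0.38). After removal of 1 library at a time, adjusted p was no longer under 0.05 for Boc (without DP1, DP2, DP5, RFP1 or RFP2, up to 0.148). Removal of a library gave a call for Ptch1 (log2 fold change -1.41 without GFP5, adjusted p = 0.00184). Folds that moved by more than 1.5 times were those of Boc (2.07 without GFP5).

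BMP pathway genes moved in both directions. BMP and GDF ligands signal through receptor kinases and SMAD proteins, and secreted antagonists such as gremlin, chordin and noggin bind the ligands. Of 44 tested, 7 were called higher and 6 lower (4 of them in every fit without 1 library), with a median log2 fold change of 0.20, and without GFP5 10 higher and 10 lower, median -0.03. Among ligands, Gdf6 rose with Gdf5, from 13.2, 4.897 and 2.71 to 159, 232 and 64.3 (19.8-fold), whereas Bmp7 fell from 4966, 4169 and 3109.7 to 1116, 991 and 1377 (3.48-fold) and Bmp8a from 197, 775 and 832 to 5.76, 24.2 and 35.1 (27.5-fold). Among antagonists Grem1 rose from 193, 73.5 and 199 to 1031, 1062 and 1139 (7.55-fold) and Chrd 5.13-fold, and Nog fell as given above. Bambi, a decoy receptor, fell from 9318, 8163 and 18586 to 3018, 2014 and 4915 (3.62-fold). Of 25 TGF-beta and activin genes, 6 were called higher and 1 lower (2 of them in every fit without 1 library), with a median log2 fold change of 0.48, and without GFP5 9 higher and 2 lower, median 0.41. The activin chains Inhba, from 261, 334 and 242 to 1774, 1021 and 1596, and Inhbb rose 5.14- and 7.796-fold, Smad3, an intracellular transducer, rose 2.99-fold, and Ccn2, a matricellular protein, fell 2.66-fold. Across the fits without 1 library, adjusted p was no longer under 0.05 for Gdf6 (without DP2, up to 0.0526), Chrd (without DP1, up to 0.0578), Smad3 (without DP1, DP2, DP5, GFP1 or RFP1, up to 0.121) and Ccn2 (without DP1, DP2, GFP1, GFP2, RFP1 or RFP2, up to 0.18). A move of the fold by more than 1.5 times was seen for Gdf6 (12.4 without DP2).

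Wnt pathway genes were also called in both directions. Of 61 tested, 9 were called higher and 6 lower (5 of them in every fit without 1 library), with a median log2 fold change of 0.17, and without GFP5 12 higher and 13 lower, median 0.06. Lgr5, a receptor for R-spondins, had 73.6, 63.7 and 180.5 and 1242, 868 and 822 (10.1-fold higher), Ror1, a receptor kinase for Wnt ligands, 461, 164 and 189 and 1135, 1969 and 1113 (5.57-fold higher) and Dkk2, a secreted modulator, rose 5.84-fold. Notum, a secreted enzyme that inactivates Wnt ligands, had 1615, 2125 and 2419 and 116, 133 and 187 (14.1-fold lower, log2 ratios -3.78, -3.99 and -3.69). The nuclear effectors Lef1, from 3587, 2497 and 2342 to 674, 444 and 919 (4.24-fold), and Tcf7 (8.22-fold) fell, as did the antagonist Dkk1 (3.699-fold). Leaving out single libraries, adjusted p was no longer under 0.05 for Dkk2 (without DP2 or DP5, up to 0.0766), Tcf7 (without DP2 or GFP1, up to 0.0658) and Dkk1 (without DP1, DP2 or GFP1, up to 0.0776). In the same fits the fold moved by more than 1.5 times for Tcf7 (5.16 without DP1 to 12.9 without GFP5, with DP5 between).

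Of 29 FGF pathway genes, 5 were called higher and 2 lower (1 of them in every fit without 1 library), with a median log2 fold change of 0.89, and without GFP5 7 higher and 1 lower, median 0.40. The ligands Fgf21, from 16.5, 22.04 and 46.1 to 164, 140.3 and 342, and Fgf10 rose 7.49- and 6.96-fold, as did the feedback inhibitor Spry1 (3.09-fold). Fgfr3, the receptor that restrains growth plate chondrocytes, had 32673, 18524 and 11554 and 3703, 2631 and 9113 (4.29-fold lower). The IGF axis gave no fall: of 20 tested, 7 were called higher and 0 lower (3 of them in every fit without 1 library), with a median log2 fold change of 0.34, and without GFP5 7 higher and 3 lower, median 0.22. Stc1, stanniocalcin, which restrains the protease encoded by Pappa, rose from 235, 323 and 417 to 1255, 1711 and 2084 (5.198-fold, log2 ratios 2.41, 2.40 and 2.32). Igfbp2, a binding protein, rose from 1587, 1436 and 1956 to 8324, 11171 and 7158 (5.302-fold), the ligand Igf1 4.26-fold and Pappa 3.56-fold, while Igf2 with 81939, 103087 and 151883 and 85212, 93722 and 70934 was not called. With each library left out in turn, adjusted p was no longer under 0.05 for Fgf10 (without DP2 or DP5, up to 0.129), Spry1 (without DP1, DP2 or DP5, up to 0.0958), Fgfr3 (without DP1, DP2, GFP1 or GFP2, up to 0.14) and Pappa (without DP2, up to 0.067). Single libraries moved the fold by more than 1.5 times for Fgf10 (3.82 without GFP5 to 10.9 without DP1, with GFP1 between) and Fgfr3 (6.68 without GFP5 to 6.86 without DP5).

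Notch and retinoic acid genes had 4 calls each. Of 25 Notch genes, 2 were called higher and 2 lower (0 of them in every fit without 1 library), with a median log2 fold change of 0.20, and without GFP5 3 higher and 1 lower, median -0.24. The target Hey1 fell 3.33-fold and the receptor gene Notch3, also a pericyte marker, rose 2.87-fold, each with values that overlapped between populations. Of 19 retinoic acid genes, 2 were called higher and 2 lower (0 of them in every fit without 1 library), with a median log2 fold change of 0.49, and without GFP5 5 higher and 1 lower, median 0.64. Cyp26a1, which degrades retinoic acid, rose from 257, 144 and 379.9 to 893, 1461 and 1797 (5.48-fold), and Stra6, a retinol uptake receptor, fell 3.49-fold. When single libraries were left out, adjusted p was no longer under 0.05 for Hey1 (without DP1, DP2 or GFP1, up to 0.127), Notch3 (without DP1, DP2, DP5, GFP1, GFP2, RFP1 or RFP2, up to 0.191), Cyp26a1 (without DP2 or GFP1, up to 0.0823) and Stra6 (without DP1, DP2, GFP1, GFP2, RFP1, RFP2 or RFP5, up to 0.168). The fold moved by more than 1.5 times for Cyp26a1 (3.58 without DP2) and Stra6 (2.24 without DP1).

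Limb patterning factors rose more often than they fell. Of 39 tested, 10 were called higher and 3 lower (2 of them in every fit without 1 library), with a median log2 fold change of 1.03, and without GFP5 13 higher and 4 lower, median 0.61. Tbx5 (ENSMUSG00000018263, chromosome 5, 119832668 to 119885219, plus strand), a T-box factor known from the forelimb, had 29.8, 37.95 and 29.8 and 1003, 653 and 686 (23.02-fold higher), and Tbx18 732, 831 and 578 and 4945, 5004 and 3223 (6.09-fold). Pitx1, the hindlimb factor, rose from 3419, 6393 and 4297 to 16714, 15058 and 10054 (2.997-fold). Irx5 fell from 913, 950 and 1201 to 367, 227 and 344 (3.31-fold) and Msx2, a target of BMP signaling, 12.1-fold. Of 29 Hox genes, 4 were called higher and 0 lower (1 of them in every fit without 1 library), with a median log2 fold change of 0.22, and without GFP5 6 higher and 0 lower, median 0.30. Hoxd10 rose from 134, 89.4 and 163 to 869.5, 662 and 745 (5.99-fold), Hoxd11 from 36.4, 68.6 and 59.7 to 408, 309 and 205 (5.49-fold) and Hoxd9 3.21-fold. Among fits that left out 1 library, adjusted p was no longer under 0.05 for Pitx1 (without DP1 or DP2, up to 0.0621), Irx5 (without DP2, up to 0.0668), Msx2 (without GFP2, up to 0.0537), Hoxd11 (without DP1 or DP2, up to 0.0725) and Hoxd9 (without DP1, DP2, DP5, GFP1 or GFP2, up to 0.101). Folds that moved by more than 1.5 times were those of Msx2 (5.59 without DP2 to 18.9 without DP1).

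CREB, ATF and AP-1 factors include Creb5, which the sort used. Of 46 tested, 2 were called higher and 2 lower (1 of them in every fit without 1 library), with a median log2 fold change of -0.18, and without GFP5 3 higher and 9 lower, median -0.23, a share of calls (8.70% with GFP5 in the fit) near that of all tested genes. Crem, another CREB family factor, rose from 298, 389 and 364 to 679, 806 and 825 (2.202-fold). Batf3, a factor known from immune cells, fell from 944, 764 and 2727 to 337, 289 and 202 (4.63-fold) and Creb3, a membrane-bound factor of the secretory pathway, 1.96-fold. In the 9 fits that each left out 1 library, adjusted p was no longer under 0.05 for Crem (without DP1, DP2, DP5, GFP1 or RFP1, up to 0.168), Batf3 (without DP1, DP2 or DP5, up to 0.0873) and Creb3 (without DP1, DP2, DP5, GFP1, GFP2, RFP1 or RFP2, up to 0.166). A move of the fold by more than 1.5 times was seen for Batf3 (2.88 without GFP5).

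Neurexins, their ligands and other synaptic adhesion genes, a list that holds Nxph1, gave rises and no fall. Of 22 tested, 12 were called higher and 0 lower (7 of them in every fit without 1 library), with a median log2 fold change of 1.83, and without GFP5 14 higher and 0 lower, median 1.75. Cbln2, a secreted cerebellin that bridges neurexins to receptors, had 139.7, 143 and 121 and 564, 1009.6 and 555 (5.05-fold higher). Adgrl2, a latrophilin receptor, rose from 947, 890 and 568 to 2417, 4040 and 2453 (3.68-fold). Populations did not overlap for these genes. Of the Schwann cell and neuron markers, 4 rose and 5 fell, with a summed level of 8837 to 14500 in GFP-only and 4242 to 6813 in double-positive libraries. The sum mixes both directions: Nefl and Nefm rose (18.8- and 11.8-fold), while S100b, also made by chondrocytes, and Mbp fell (5.45- and 21.7-fold). The part of these markers in the rises of the neurexin list was not tested. After removal of 1 library at a time, the calls of the genes named with values here passed.

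Of 68 semaphorin, ephrin, Slit and netrin genes, 12 were called higher and 2 lower (5 of them in every fit without 1 library), with a median log2 fold change of 0.70, and without GFP5 18 higher and 7 lower, median 0.33. Plxna4, a semaphorin receptor, rose from 84.3, 40.4 and 33.9 to 841, 821 and 526 (14.3-fold), the secreted guidance protein gene Ntn1 from 136, 269 and 55.6 to 636, 1681 and 1118 (8.29-fold), and Efnb2, a membrane ephrin, 4.27-fold. Unc5b, a netrin receptor, fell from 837, 2159.6 and 1246 to 181, 151 and 393 (5.92-fold). Of 33 cadherin and integrin genes, 8 were called higher and 3 lower (3 of them in every fit without 1 library), with a median log2 fold change of 0.63, and without GFP5 10 higher and 4 lower, median 0.19. Itga8, an integrin chain, rose from 278, 211 and 198 to 800.3, 929 and 994 (3.98-fold) and Cdh13, a membrane-anchored cadherin, 6.46-fold. Itga1, a collagen receptor chain, fell from 1731, 1813 and 1320.1 to 436, 712 and 619 (2.78-fold). Across the fits without 1 library, adjusted p was no longer under 0.05 for Itga1 (without DP1 or DP2, up to 0.06). In the same fits the fold moved by more than 1.5 times for Ntn1 (5.42 without GFP5).

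**Figure D3:**
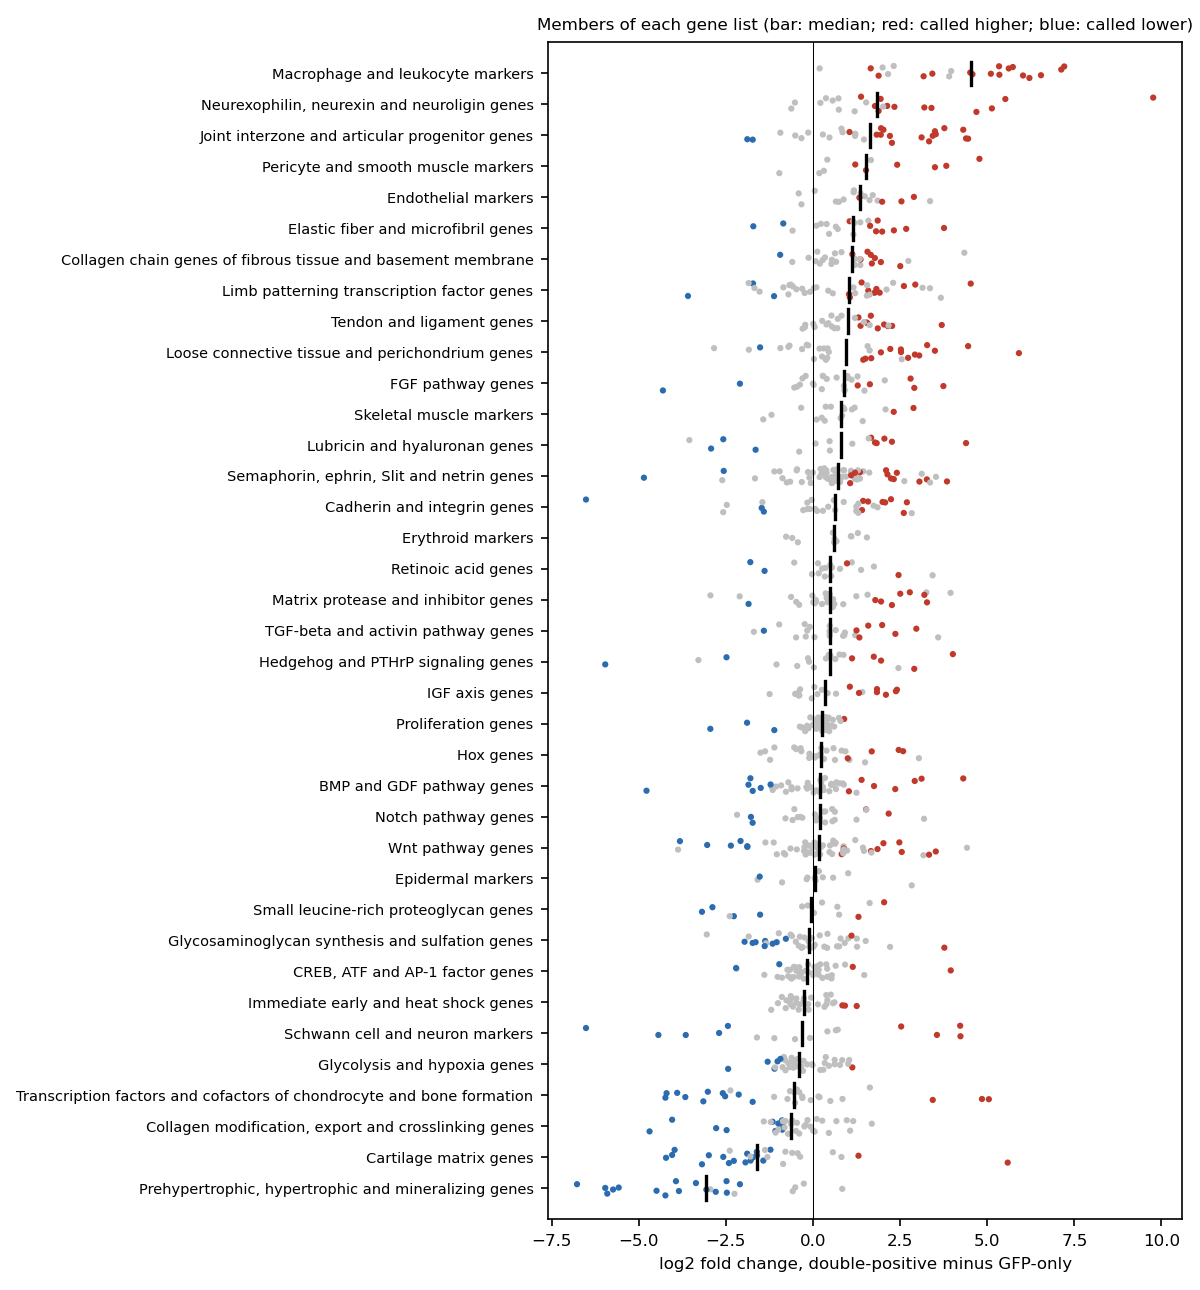
Each point is a tested member of a gene list at its log2 fold change (double-positive minus GFP-only), with lists ordered by their median (black bar) and calls in red (higher) and blue (lower). Medians run from -3.06 for the prehypertrophic list to 4.54 for the macrophage and leukocyte markers.

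Of 37 proliferation genes tested, 1 was called higher and 3 lower (2 of them in every fit without 1 library), with a median log2 fold change of 0.26, and without GFP5 4 higher and 3 lower, median 0.23, a share of calls (10.8% with GFP5 in the fit) near the 9.25% of all tested genes. Cdkn1a, the inhibitor p21, had 6885, 6754 and 18333 and 604, 978 and 3126 (7.72-fold lower), and Cdkn1c, the inhibitor p57, 179208, 182786 and 311986 and 89924, 104985 and 106901 (2.16-fold lower). Cdk6 fell 3.72-fold with values that overlapped, and Mki67, a proliferation marker, rose from 3238, 2881 and 1834 to 5925, 4487 and 4116 (1.86-fold). Of 36 glycolysis and hypoxia genes, 1 was called higher and 5 lower (0 of them in every fit without 1 library), with a median log2 fold change of -0.39, and without GFP5 2 higher and 8 lower, median -0.34. The glucose transporter gene Slc2a1 fell from 15148, 14345 and 22939 to 5805, 4774 and 11941 (2.47-fold) and the aldolase gene Aldoc 5.42-fold. Of 30 immediate early and heat shock genes, which respond to tissue digestion, 3 were called higher and 0 lower (0 of them in every fit without 1 library), with a median log2 fold change of -0.27, and without GFP5 3 higher and 3 lower, median -0.31. Their share of calls (10% with GFP5 in the fit) was also near that of all tested genes. Leaving out single libraries, adjusted p was no longer under 0.05 for Cdkn1c (without DP1, DP2, DP5 or GFP1, up to 0.0992), Mki67 (without DP1, DP2, DP5, GFP1, GFP2, RFP1, RFP2 or RFP5, up to 0.19), Slc2a1 (without DP1 or DP2, up to 0.0776) and Aldoc (without DP1 or DP2, up to 0.0725).

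Markers of other cell types were measured because a sort on Sox9 and Creb5 reporters can hold other cells. Of 22 macrophage and leukocyte markers, 16 were called higher and 0 lower (6 of them in every fit without 1 library), with a median log2 fold change of 4.54, and without GFP5 13 higher and 0 lower, median 4.61. Their summed level was 1954 to 3199 normalized counts in GFP-only and 5704 to 32631 in double-positive libraries, lowest in DP1 and highest in DP5, and at most 0.0927% of a library's total. Csf1r, the macrophage growth factor receptor, had 1.65, 24.5 and 31.2 and 368, 949.6 and 2514, and C1qa, a complement chain, 4.13, 25.7 and 13.6 and 247, 506 and 1051 (74- and 40.4-fold higher). Itgam and Fcgr1 had no read in GFP-only libraries. With each library left out in turn, the calls of the genes named with values here passed. Single libraries moved the fold by more than 1.5 times for Csf1r (36.3 without GFP1 to 115 without GFP2) and C1qa (25.7 without DP5).

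Of 18 endothelial markers, 4 were called higher and 0 lower (0 of them in every fit without 1 library), with a median log2 fold change of 1.34, and without GFP5 5 higher and 0 lower, median 1.29, with sums of 2834 to 4452 in GFP-only and 3335 to 9854 in double-positive libraries. Of 11 pericyte and smooth muscle markers, 6 were called higher and 0 lower (2 of them in every fit without 1 library), with a median log2 fold change of 1.52, and without GFP5 6 higher and 1 lower, median 1.38, with sums that overlapped (15973 to 19498 and 11505 to 22212). Rgs5, given above, and Mcam, an adhesion molecule, from 707, 632 and 483 to 2954, 2699 and 4109 (5.33-fold), were among those higher, while Pdgfrb, the defining receptor, was not called (0.31 ± 0.55, and -0.61 without GFP5), and Higd1b had no read in double-positive libraries. Skeletal muscle markers (18 tested) had 2 calls, both higher and neither kept in every fit without 1 library, a median of 0.81 (without GFP5 4 higher and 0 lower, median 0.97), and sums of 1089 to 3407 and 1446 to 4153. Their share of calls (11.1% with GFP5 in the fit) was near the 9.25% of all tested genes. Des, the muscle filament desmin, rose from 79.4, 53.9 and 51.6 to 218, 319.6 and 405 (4.98-fold). Myh7 and Ckm had no read in GFP-only libraries. When single libraries were left out, adjusted p was no longer under 0.05 for Des (without DP2, up to 0.0624).

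Of 16 Schwann cell and neuron markers, 4 were called higher and 5 lower (6 of them in every fit without 1 library), with a median log2 fold change of -0.30, and without GFP5 4 higher and 7 lower, median -1.39. Their sums were 8837 to 14500 in GFP-only and 4242 to 6813 in double-positive libraries. Neurofilament genes rose (Nefm 11.8-fold) with Nefl, and Mbp, the myelin basic protein, fell from 1395, 2069 and 1989 to 27.9, 81.9 and 234 (21.7-fold), as did S100b, a calcium-binding protein also made by chondrocytes, from 1738, 3366 and 8036 to 360.3, 654 and 1231 (5.45-fold). Sox10, the defining glial factor, had 1908, 1972 and 952 and 1045, 782 and 1486 and was not called. None of 12 erythroid markers was called (4 higher and 1 lower without GFP5), with sums of 7999 to 39787 and 11341 to 78744. Of 13 epidermal markers 1 was lower with GFP5 in the fit, as without it (a call not kept in every fit without 1 library), with sums of 2104 to 4096 and 2493 to 2838. The part of these cells in the results above was not tested. Among fits that left out 1 library, the calls of the genes named with values here passed. The fold moved by more than 1.5 times for Mbp (13.5 without DP1 to 34.9 without DP5).

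**Figure D4:**
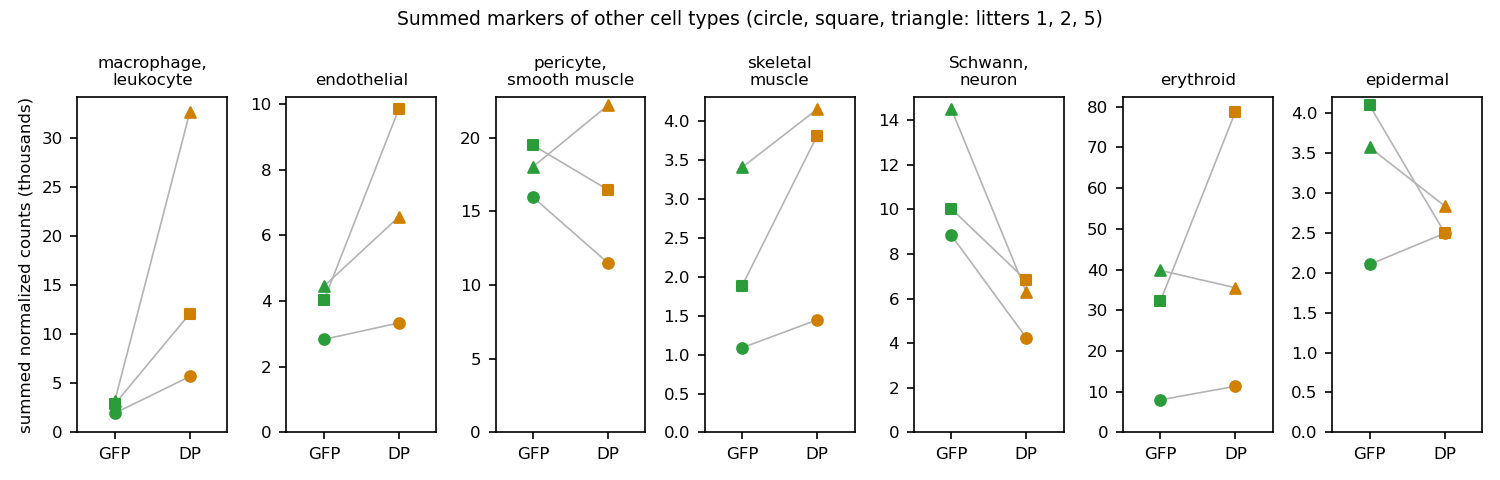
Summed normalized counts (axes starting at 0) of 7 marker lists in GFP-only (GFP) and double-positive (DP) libraries, with lines joining the libraries of 1 litter. The macrophage and leukocyte sum is higher in the double-positive library of every litter and highest in litter 5, and the Schwann and neuron sum is lower in every litter.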

How the data were processed

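Polyadenylated RNA of sorted knee cells was sequenced from Nextera XT libraries. The deposited values are a signal, gene counts divided by a size factor for each library. Per the submitters' processing notes, FastQC, STAR, Salmon, DESeq2 and mm10 were used. Every value was a whole multiple of 1 read's worth (tolerance 0.001 reads), which gave back the reads and depth (25199258 to 47079305 reads over 9 libraries). Names and GRCm38 coordinates came from the annotation for 54495 of 54532 gene IDs. The value log2(normalized count + 1) was fitted with limma 3.58.1 (R 4.3.3, mean-variance trend) with population and litter as terms over all 9 libraries, and p-values were adjusted by Benjamini-Hochberg over 17619 genes. The fold change is the mean of the 3 within-litter log2 ratios on this scale. The added 1 shrinks the ratio of a low gene within a litter, but a litter with a value of 0 can raise the mean. Pax1, for example, was 33.02-fold higher, with mean normalized counts of 46.9 in GFP-only and 564 in double-positive libraries. Where a population had no read, a fold is a lower bound against 3 reads over its libraries.

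Litters are paired because each was 1 collection, per the labels. The pairing does not rest on the values: deviations of the 2 populations from their means correlated only weakly, by 0.13, 0.14 and 0.07 within litters 1, 2 and 5. With litter as a random block the consensus correlation within litters was 0.017. edgeR 4.0.16 and DESeq2 1.42.0 on recovered reads, other scalings, filters and pseudocounts, and leaving out libraries or litters were tried. Members and gene lists were chosen with earlier results of these data known. Named genes were 8 joint and cartilage genes, the 15 largest changes (mean of at least 100 in the higher population), the 10 smallest adjusted p and the 10 highest means in each direction, and from each list up to 4 called genes a direction and 3 uncalled. Some genes that this rule names are not reported here.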

Additional observations from a re-analysis of the deposited data

How the results depend on the processing

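Over 18 other fits with all 9 libraries or the 6 compared (1 of them changed both the libraries and the block), none of 168 called genes named above changed direction. Calls lost among them numbered 36 on the 6 libraries without the block, 36 without a mean-variance trend, 17 with edgeR, 16 with no replicate block and 0 to 14 in the others. With litters left unpaired (no replicate block) 1475 genes were called, 934 higher and 541 lower. On the 6 libraries alone 1182 were called with the litter block, and without it 755 (456 higher, 299 lower, 753 by at least 2-fold). Without a mean-variance trend 974 were called (657 higher, 317 lower, 973 by at least 2-fold), and DESeq2 on the recovered reads called 3073 (1772 higher, 1301 lower, 2356 by at least 2-fold), against 1151 with edgeR. Total count scaling left 364 lower. With 1 library left out, 338 (without DP2) to 2826 (without GFP5) genes were called, 216 to 1485 higher, 122 to 1341 lower and 338 to 1658 by at least 2-fold. Without a whole litter the counts were 192 (154 higher, 38 lower) for litter 1, 401 (284 and 117) for litter 2 and 2355 (1204 and 1151) for litter 5. Each of these fits used 1 estimate of the spread per gene, shared by the populations. Genes that were not called and changed sign were Sox9 (0.12 under quantile scaling), Erg (-0.57 to 0.13 with 1 library left out, above 0 without DP2), Wnt9a (-4.204e-05 without GFP5, up to 2.23 without GFP2), Col1a1 (-0.60 without GFP5, up to 1.78 without GFP2, and -0.625 without litter 5), Col1a2 (-0.32 without either, up to 1.11 without GFP2) and Pdgfrb (-0.217 without DP5, -0.61 without GFP5, up to 0.84 without GFP1, and -0.66 without litter 5). The cause was not tested. At this depth 46 genes called higher had no read in GFP-only and 11 called lower had none in double-positive libraries. The 46 include Itgam and Fcgr1, from the macrophage and leukocyte markers, and Ccr1, known from myeloid cells, as well as Nxph1. The part of other cell types in this count was not tested.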

Other observations

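Enzymes of cholesterol synthesis, a pathway not covered above, had log2 fold changes below 0 for all 20 genes tested. The list was set after its values were seen, so its count is a description. In double-positive cells 12 of the 20 were called lower, 4 of them in every fit without 1 library, and none higher (9.25% of all tested genes were called), with a median log2 fold change of -1.07, and without GFP5 18 were lower with a median of -1.18. Msmo1, a sterol methyl oxidase, had 14631, 13699.5 and 16736 normalized counts in GFP-only libraries and 4639, 4572 and 6172 in double-positive libraries (2.95-fold lower), and Fdps, which makes farnesyl diphosphate, 13997, 16405 and 29641 and 4739.5, 5381 and 5288 (3.695-fold lower). With each library left out in turn, the calls of the genes named with values here passed.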
